A study of Eonycteris spelaea and Mus musculus with 51 samples.

Results

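Gene expression in mouse blood was compared between animals sampled right after heat shock and animals sampled at baseline. The comparison took every library the series has for these conditions and selected no genes: 2 heat libraries, replicates 1 and 2, and 2 control libraries, replicates 1 and 3, which are 4 of the 51 libraries of the series. Of 40840 rows in the mouse count table, 15869 held enough reads to be tested.

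The study asked how the heat shock response of the cave nectar bat compares with that of the mouse, using bulk RNA sequencing of blood, lung and muscle. Control mice were untreated, heat mice were taken as soon as an in vivo heat shock of 1 h had ended, and recovery mice had 4 h without heat after the same treatment. The 2 recovery libraries of mouse blood were part of the fit but not of the comparison. They entered the filter on low counts, the scaling of libraries and the estimate of spread, and their levels are given beside the others. Strain, sex, age, body temperature and the number of animals behind a library are not given in the sources used here, so p-values measure the spread between these libraries, which may be technical. No group is labelled as handled without heat for the same time, so heat cannot be told apart from handling or from elapsed time.

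In cells exposed to heat, unfolded proteins draw chaperones away from the transcription factor HSF1, which then switches on genes for HSP70, HSP110, HSP40 and HSP90 chaperones. Chaperones bind unfolded segments, and co-chaperones set the pace of their ATP cycle and hand clients from HSP70 to HSP90. Blood adds another layer: stress hormones such as glucocorticoids act on leukocytes, and neutrophils and lymphocytes move between the circulation and the marrow, lymph nodes and vessel walls.

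Levels are given as CPM (reads per library size in M), with library sizes corrected by TMM, the trimmed mean of log ratios between libraries. Throughout, pairs of values are in the order control 1 and 3, heat 1 and 2, recovery 1 and 2. Total counts ran from 32.5 to 54.5 M per library. Red cell and reticulocyte genes took 52.3 to 69.3% of them, which left 11.8 to 16.8 M counts for all other genes. Ptprc, the pan-leukocyte gene for CD45, had 12395 to 22347 counts in each library. Sftpc of lung had at most 4, Ckm of muscle at most 3 and Alb of liver at most 3 counts, so defining genes of those organs were at or near 0. No library was a copy of its partner, as the squared differences within each pair were at least 21.4 times those of counting error.

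A control library and a heat library stood apart before any heat comparison. Control 3 and heat 2 carried genes of resident tissue macrophages and complement that control 1, heat 1 and both recovery libraries had at lower levels. Control 1 in turn stood above heat 1 for the genes given next. Fn1, which encodes fibronectin, stood at 393 and 1634 CPM in control, 51.2 and 3540.2 at heat and 173 and 179 at recovery. Timd4, a receptor for dying cells on resident macrophages, stood at 2.13 and 18.1 in control and 0.05 and 26.8 at heat, and the complement gene C1qa at 5.56 and 36.1, then 0.22 and 82.1 CPM. The summed level of 12 tissue macrophage genes, a list drawn up after these values were seen, was 42.0 and 247 CPM in control, 6.01 and 516 at heat and 18.2 and 14.2 at recovery. All 12 overlapped between control and heat. The same libraries had the lowest red cell shares (55.7% in control 3 and 52.3% in heat 2) and the highest TMM factors (1.38 and 1.40, against 0.739 to 1.08 in the others). Summed levels are over the members of a list that were tested. Markers of some other tissues followed these libraries. The transferrin gene Trf, the 1 hepatocyte gene tested, stood at 21.7 and 116 CPM in control and 18.3 and 204 at heat. Alb, also of liver, had 0 counts in control 3 and in heat 2. The 6 fibroblast and matrix genes summed to 1.59 and 15.6, then 0.87 and 10.5, and 2 adipocyte genes to 1.07 and 3.67, then 1.45 and 10.1. Endothelial genes went the other way, at a sum of 94.0 and 67.0, then 90.6 and 48.1. Lung epithelial genes, at 7.31 and 8.29, then 9.96 and 8.93, did not follow these libraries. Neither did skeletal muscle genes, at 5.38 and 5.06, then 8.58 and 5.78. The part of these tissue genes in the results was not tested. Most list medians below are therefore also given for control 1 with heat 1 and for control 3 with heat 2. These are called the first and second pair, and there the spread between libraries came from the recovery pair alone.

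With 2 libraries a side, no gene passed edgeR's quasi-likelihood test at a Benjamini-Hochberg adjusted p under 0.05 (0% of 15869). The smallest adjusted p was 0.0563, for the clock gene Per1. At an unadjusted p under 0.05 stood 2355 genes, of which 1187 were higher (7.48% of genes tested) and 1168 lower (7.36%). DESeq2, run on the same counts, called 425 genes higher (3.24% of the 13100 it gave an adjusted p) and 185 lower (1.41%). Heat and control libraries did not overlap for 3251 genes that were higher (20.5%) and 3662 that were lower (23.1%). Counts without overlap in the lists below stand against these shares of all genes. The edgeR count rested on the libraries used: it was 4 higher and 1 lower without control 1, 41 and 2 without heat 1, 494 and 242 without heat 2, and 0 without control 3. Control 1 with heat 1 gave 1718 and 1083, and control 3 with heat 2 gave 422 and 223. The genes are therefore described by their levels, and "passed DESeq2" marks an adjusted p under 0.05 in that test alone. Of 135 named genes followed through 15 alternative analyses, 134 kept the sign of their log2 difference, and the exception was Hsf1. Most of the 135 were named for no overlap or a small p in these same libraries. A stable sign was thus largely fixed by the choice and says little about other genes. Fn1, Timd4, C1qa, Hspa4 and Ier3 were not among the 135; the first 3 were lower at heat in control 1 with heat 1 and higher in control 3 with heat 2.

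**Figure D1:**
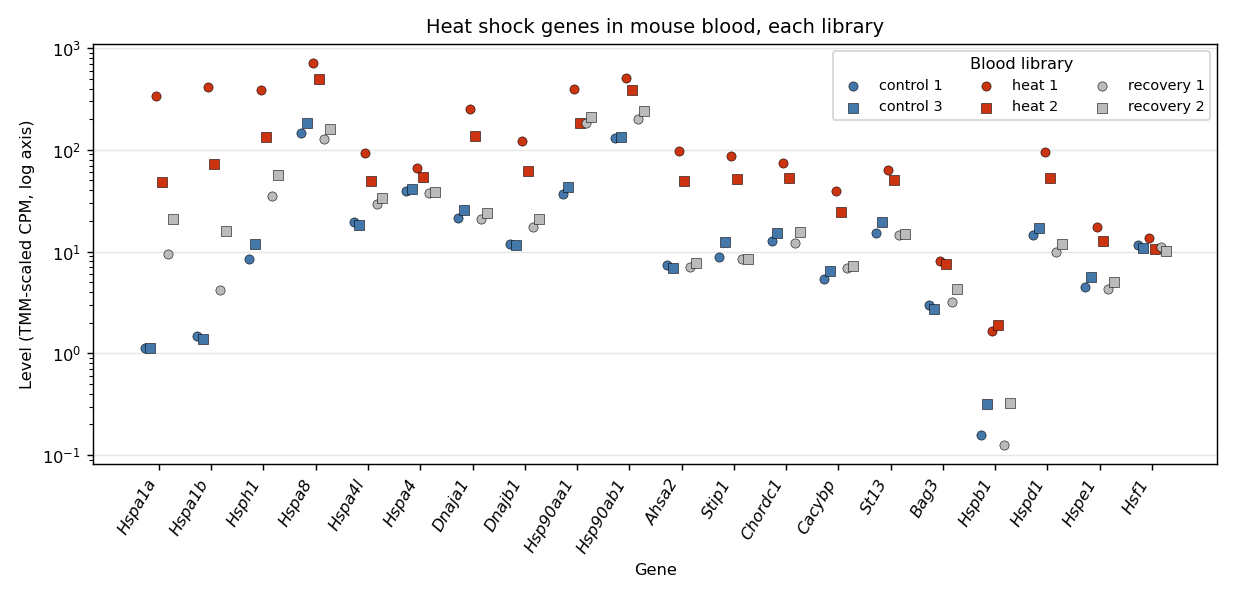
Levels of 20 heat shock genes in the 6 mouse blood libraries, as TMM-scaled CPM on a log axis; each point is 1 library, coloured by condition, with circles for replicate 1 and squares for the other replicate. For every gene but Hsf1 both heat libraries lie above both control libraries, and Hspa1a, Hspa1b and Hsph1 differ most between heat 1 and heat 2.

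The inducible HSP70 genes had the largest differences among genes that met the conditions for naming. These were a mean of 5 CPM or more, no overlap, an unadjusted p under 0.05 and a full gene symbol. Hspa1a stood at 1.12 and 1.13 CPM in control, at 335 and 48.0 at heat and at 9.39 and 20.9 at recovery. Hspa1b, its near-identical copy, stood at 1.48 and 1.37, then 415 and 71.8, then 4.15 and 16.0 CPM. Both heat libraries were far above control, and heat 1 was well above heat 2. The log2 difference was 7.41 for each gene (SE 1.26 and 1.31, edgeR adjusted p = 0.129 and 0.130), and 8.25 and 8.15 in control 1 with heat 1 against 5.38 and 5.69 in control 3 with heat 2. In the GENCODE M21 transcripts, 47.1% of the 100-base windows of Hspa1a occur unchanged in Hspa1b, so the split of reads between the copies is uncertain.

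Hsph1, the HSP110 that exchanges nucleotide on HSP70, stood at 8.40 and 11.8 CPM in control, 387 and 133 at heat and 35 and 56.2 at recovery (log2 4.68, SE 0.61, edgeR adjusted p = 0.0927). The other HSP110 genes were also higher in both heat libraries: Hspa4l stood at 19.7 and 18.1, then 92.5 and 49.0 CPM. Hspa4 differed least, at 39.0 and 40.7, then 65.7 and 53.7 CPM (log2 0.58). All 5 tested genes of this list were above control without overlap, all 5 had an unadjusted p under 0.05 and all 5 passed DESeq2, with a median log2 of 4.68 against 0.02 over all genes tested. That median was 6.50 in control 1 with heat 1 and 3.47 in control 3 with heat 2.

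Among HSP70 genes that cells express without heat, Hspa8, the housekeeping form of the cytosol, had the highest counts. It stood at 147 and 182 CPM in control, 711 and 501 at heat and 128 and 161 at recovery (log2 1.88, SE 0.26). Hspa5, the HSP70 of the endoplasmic reticulum, stood at 52.4 and 70.8, then 98.7 and 116 CPM (log2 0.80), and Hspa9 of mitochondria at 19.4 and 20.1, then 26.4 and 29.3 CPM (log2 0.49). In all 3 the heat libraries lay above control, by smaller factors than for Hspa1a and Hspa1b. The list of constitutive HSP70 genes, which holds Hspa8 but neither of the organelle forms, had 3 of 5 tested genes higher without overlap and 1, Hspa8, past DESeq2. Its log2 values ran from -0.07 to 1.88, with a median of 0.77 and of 0.28 and 0.36 in the first and second pair. Hsf1 itself did not separate the groups, at 11.5 and 10.9 CPM in control and 13.6 and 10.7 at heat (log2 0.11, SE 0.15). Its sign turned in 3 of the alternatives, to -0.12 without TMM, -0.08 without heat 1 and -0.06 in control 3 with heat 2.

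HSP40 genes, whose J domain drives the ATPase of HSP70, split into 2 strongly different members and a majority near the background. Dnaja1 stood at 21.4 and 25.4 CPM in control, 253 and 135 at heat and 21.0 and 23.9 at recovery (log2 3.05, SE 0.32, edgeR adjusted p = 0.0800). Dnajb1 stood at 11.9 and 11.6, then 123 and 62.4, then 17.5 and 20.8 CPM (log2 2.98, SE 0.34). The next, Dnajb4, stood at 11.0 and 9.10, then 24.9 and 12.3 CPM (log2 0.89), and its difference was 0.40 in control 3 with heat 2. Of 14 tested HSP40 genes, 5 were higher and 2 lower without overlap, and Dnaja1 and Dnajb1 were the 2 that passed DESeq2. The list median was 0.27, and 0.35 in the first and 0.16 in the second pair.

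Most genes of HSP90 and its co-chaperones were higher at heat. The inducible form Hsp90aa1 stood at 36.4 and 42.9 CPM in control and 393 and 183 at heat (log2 2.86, SE 0.38), and its recovery libraries, at 182 and 209, were still as high as heat 2. The constitutive form Hsp90ab1 stood at 131 and 135, then 507 and 389, then 202 and 243 CPM (log2 1.75, SE 0.21). Both forms thus stood above control in all 4 treated libraries.

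The co-chaperones differed as much as HSP90 itself, and their recovery levels were at or near control. Ahsa2, an activator of the HSP90 ATPase, stood at 7.33 and 6.86 CPM in control, 96.6 and 49.7 at heat and 7.10 and 7.69 at recovery (log2 3.37, SE 0.33). Stip1, the adaptor that links HSP70 to HSP90, stood at 8.76 and 12.5, then 87.1 and 51.3, then 8.46 and 8.52 CPM (log2 2.7). The log2 difference was 2.45 for Cacybp, 2.20 for Chordc1 and 1.70 for St13, an HSP70-interacting protein. Of 12 tested genes of HSP90 and its co-chaperones, 10 were higher without overlap, the same number had an unadjusted p under 0.05 and the same number passed DESeq2, with none lower. The list median was 1.74, and 2.08 in control 1 with heat 1 against 1.39 in control 3 with heat 2. Counted over the alternatives, 9 or 10 members had an unadjusted p under 0.05 with a higher level at heat.

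Small heat shock proteins were scarce in blood. Hspb1, abundant in muscle and epithelia, stood at 0.16 and 0.32 CPM in control and 1.65 and 1.89 at heat (log2 2.86, SE 0.55). Bag3, which couples small heat shock proteins to HSP70, stood at 2.99 and 2.71, then 8.12 and 7.47 CPM (log2 1.45, SE 0.20). Unlike the HSP70 genes, these 2 had nearly equal levels in the heat libraries. Of 12 tested members of the list, 4 were higher without overlap and 3 passed DESeq2, with a median of 0.20 (0.23 in the first and 0.22 in the second pair).

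Mitochondrial chaperonin genes were higher at heat while most of their list was not. Hspd1, the HSP60 subunit, stood at 14.5 and 16.9 CPM in control, 96.1 and 52.5 at heat and 9.96 and 11.9 at recovery (log2 2.24, SE 0.30). Its lid Hspe1 stood at 4.50 and 5.64, then 17.4 and 12.6 CPM (log2 1.56). Of 11 mitochondrial chaperones tested, 5 were higher and 3 lower without overlap, and the 3 that passed DESeq2 were Hspd1, Hspe1 and Hspa9. The median was 0.15, and 0.07 in the first and 0.12 in the second pair. The cytosolic chaperonin, which folds actin and tubulin, had 8 of 14 genes higher and 2 lower without overlap, and the same number of 8 passed DESeq2, with a median of 0.54 (0.63 and 0.48 in the pairs). Its subunit Cct6a stood at 19.0 and 19.8, then 40.6 and 37.6 CPM (log2 1.01, SE 0.11), with Cct3 at a log2 of 1.04 and Cct4 at 0.84.

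Genes that dispose of damaged protein were mixed. Zfand2a, an arsenite- and heat-inducible proteasome partner, stood at 2.86 and 3.57 CPM in control and 15.2 and 6.38 at heat (log2 1.74), with 0.81 in control 3 with heat 2. Both heat libraries lay above control, heat 2 by the smaller margin. Of the 25 endoplasmic reticulum stress genes 3 were higher and 1 lower without overlap, and their median was 0.25 (0.04 in the first and 0.32 in the second pair). Proteasome subunits had 3 of 31 higher and 6 lower, with a median of -0.15 (-0.21 and 0.02 in the pairs), and none of the 31 had an unadjusted p under 0.05.

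**Figure D2:**
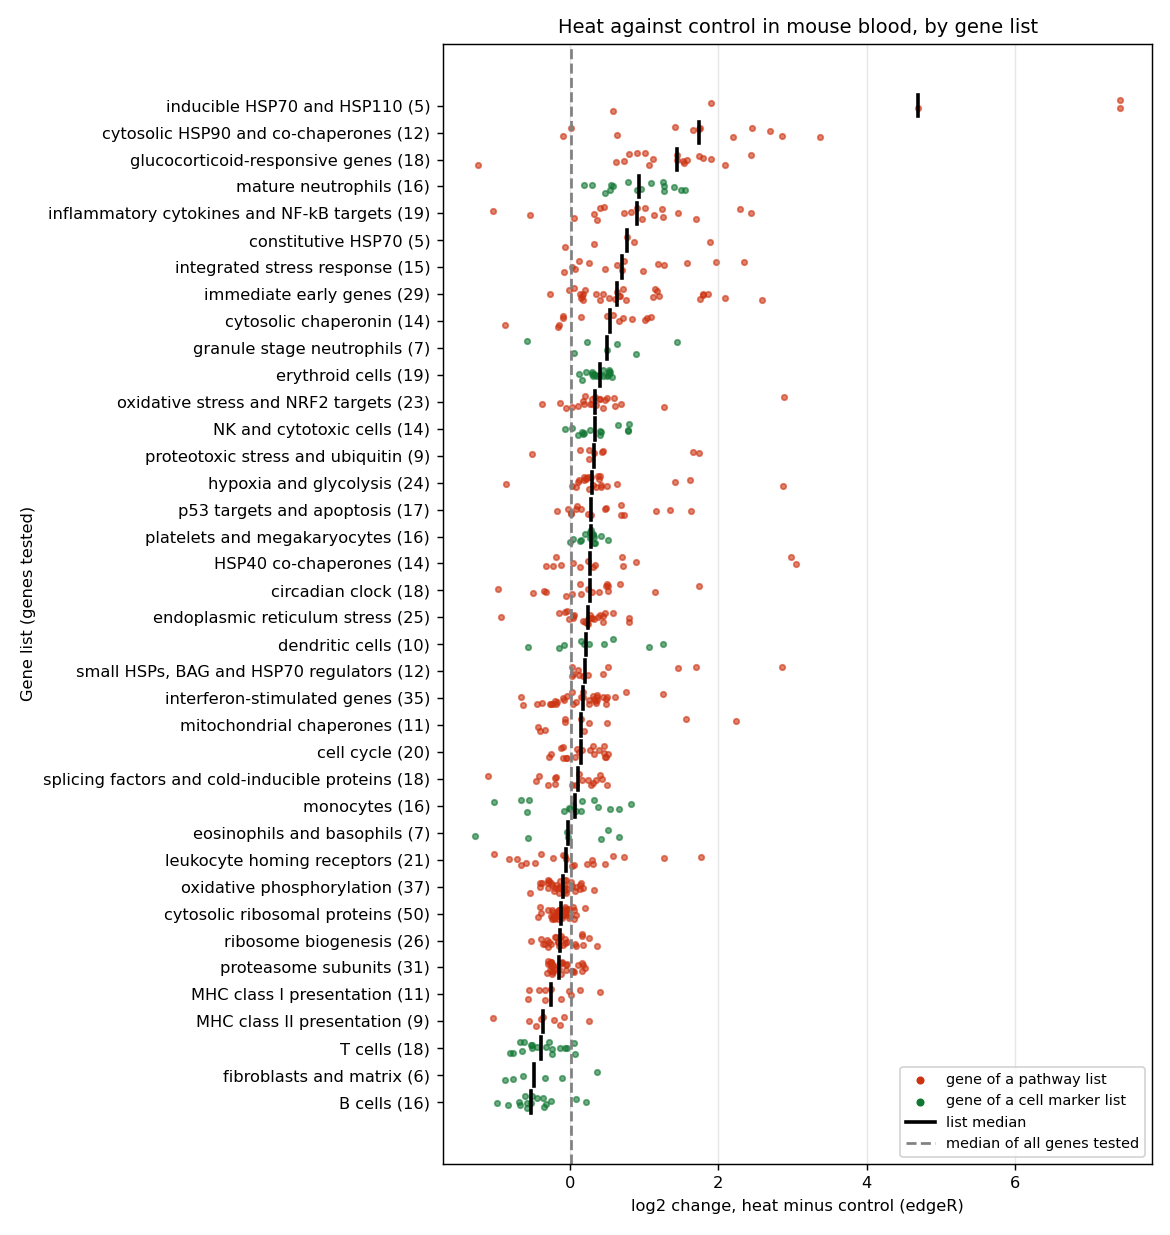
Log2 difference between heat and control (edgeR) for every tested gene of 38 lists with at least 5 tested members, sorted by list median; black bars are list medians and the dashed line is the median of all 15869 genes, at 0.02. Inducible HSP70 and HSP110 (4.68), HSP90 and co-chaperones (1.74) and glucocorticoid-responsive genes (1.45) lead, and B cells (-0.52) close the order.

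Several of the largest differences lay outside the chaperones. The carrier Slc5a3, which takes up the osmolyte myo-inositol, stood at 9.96 and 9.63 CPM in control, 120 and 62.0 at heat and 7.07 and 8.63 at recovery (log2 3.21, SE 0.34). Crispld2, a secreted lipopolysaccharide-binding protein, stood at 1.30 and 1.71, then 13.3 and 12, then 2.19 and 3.01 CPM (log2 3.07, SE 0.23). P4ha1, a collagen prolyl hydroxylase, stood at 7.96 and 10.8, then 89.0 and 48.6, then 6.69 and 7.73 CPM (log2 2.88, SE 0.33). Each had an edgeR adjusted p of 0.0800 and lay back near control at recovery. Haem oxygenase Hmox1 stood at 2.94 and 6.32, then 46.4 and 22.2, then 1.36 and 2.21 CPM (log2 2.88, SE 0.52). The difference for Hmox1 was 4.00 in control 1 with heat 1 and 1.78 in control 3 with heat 2. These 4 genes and Hspa1a, Hspa1b, Hsph1, Ahsa2, Dnaja1, Dnajb1, Hsp90aa1 and Stip1 make up the 12 largest differences upward. The ranking took genes with a full symbol, a mean of 5 CPM or more, no overlap and an unadjusted p under 0.05.

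Under the same conditions, the 12 largest differences downward were smaller and of mixed function. The linker histone genes H1f4 and H1f3 and the core histone gene H4c14 were among them, with H1f4 at 6.60 and 8.44 CPM in control, 1.91 and 3.34 at heat and 5.74 and 5.15 at recovery (log2 -1.51, SE 0.29). H4c14 stood at 9.05 and 8.57, then 2.01 and 4.18 CPM (log2 -1.50), and H1f3 at 6.60 and 9.14, then 2.47 and 3.83 CPM (log2 -1.32). Of 62 tested clustered histone genes, a list drawn up after values were seen, 19 were lower and 1 higher without overlap. Over all genes tested, 23.1% were lower and 20.5% higher. In the histone list 3 lower genes passed DESeq2, and its median was -0.14 (-0.27 in the first and -0.10 in the second pair). Most histone transcripts lack a poly(A) tail, and whether selection for such tails was used is not stated. The others included H2-Eb2 of the class II region (log2 -1.27), the kinase gene Pskh1 (-1.24), the kynurenine hydroxylase Kmo (-1.13) and the urea transporter Slc14a1 (-1.25). Cirbp, the cold-inducible RNA-binding protein that is made less in warm cells, stood at 14.0 and 11.2 CPM in control, 6.83 and 4.84 at heat and 15.4 and 12.1 at recovery (log2 -1.11, SE 0.23).

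Genes that glucocorticoids induce in leukocytes were also mostly higher at heat. Per1, a repressor of the circadian clock with a glucocorticoid response element, stood at 15.3 and 14.7 CPM in control, 52.8 and 47.6 at heat and 13.6 and 13.4 at recovery. Its log2 difference was 1.74 (SE 0.11, edgeR adjusted p = 0.0563), with 1.81 in control 1 with heat 1 and 1.67 in control 3 with heat 2. Over 15 alternatives Per1 was called in 6, with adjusted p from 7.2e-24 to 0.399. Both heat libraries were thus more than 3 times any other blood library.

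Other glucocorticoid-responsive genes also stood above control in both heat libraries. Fkbp5, a co-chaperone that restrains the glucocorticoid receptor, stood at 6.81 and 10.4 CPM in control, 31.7 and 41.7 at heat and 5.46 and 6.20 at recovery (log2 2.09, SE 0.24). Dusp1, a phosphatase of MAP kinases, stood at 50 and 60, then 193 and 188, then 21.1 and 28.9 CPM (log2 1.79, SE 0.19). Tsc22d3, which encodes the anti-inflammatory protein GILZ, stood at 97.4 and 115, then 224 and 237, then 78.1 and 90.7 CPM (log2 1.12, SE 0.16). In contrast to the HSP70 genes, heat 2 was as high as heat 1 or higher for Fkbp5 and Tsc22d3. Of 18 tested members 12 were higher and none lower without overlap, 10 had an unadjusted p under 0.05 and 9 passed DESeq2. The log2 values ran from -1.24, for the scarce Pdk4, to 2.45. Their median was 1.45, and 1.25 in control 1 with heat 1 against 1.06 in control 3 with heat 2.

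**Figure D3:**
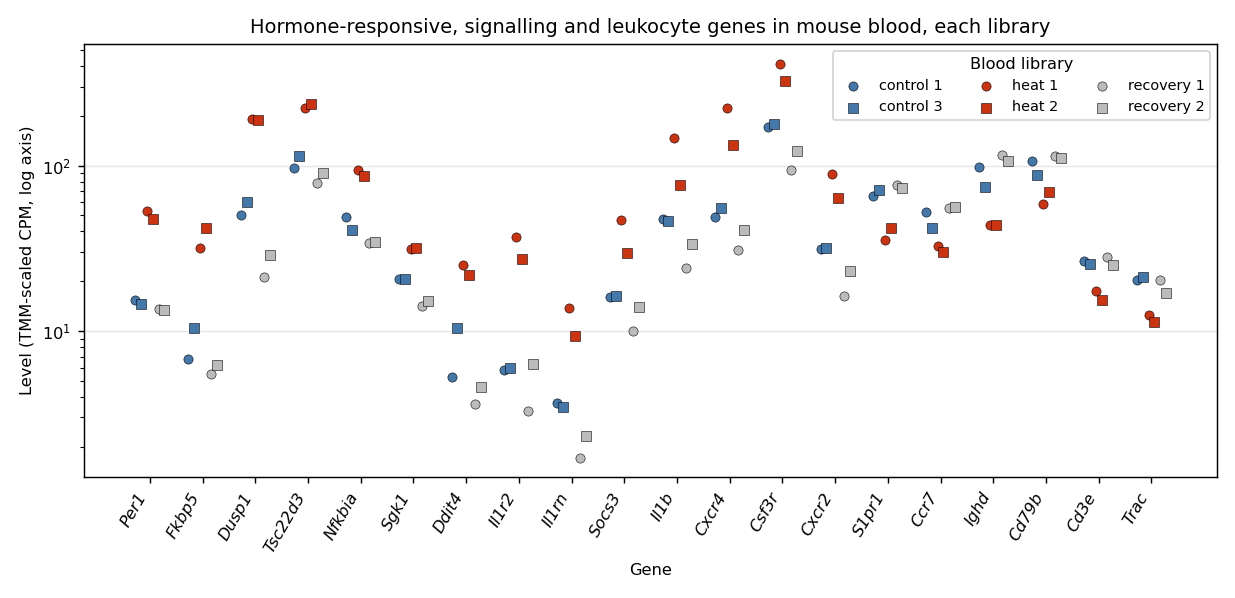
Levels of 20 hormone-responsive, signalling and leukocyte genes in the 6 mouse blood libraries, as TMM-scaled CPM on a log axis; each point is 1 library. Per1 to Cxcr2 are higher in both heat libraries than in both control and both recovery libraries, and S1pr1 to Trac are lower in both heat libraries than in both control libraries.

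Signalling and inflammatory genes were higher at heat with brakes and effectors side by side. Nfkbia, the inhibitor of NF-kB, stood at 48.7 and 40.6 CPM in control, 93.8 and 86.4 at heat and 33.9 and 34.4 at recovery (log2 1.01, SE 0.13). The decoy receptor Il1r2, which binds interleukin 1 without signalling, stood at 5.80 and 5.96, then 36.9 and 27.2 CPM (log2 2.45, SE 0.33). The interleukin 1 receptor antagonist Il1rn stood at 3.67 and 3.48, then 13.8 and 9.34 CPM (log2 1.69). The cytokine itself, Il1b, stood at 47.8 and 46.2, then 148 and 76.6, then 24.2 and 33.7 CPM (log2 1.25, SE 0.33), with 0.70 in control 3 with heat 2. Of 19 tested inflammatory genes, 14 were higher and 1 lower without overlap and 6 passed DESeq2, with a median of 0.90 (1.20 in the first and 0.59 in the second pair). Nfkbia and Il1r2 also belong to the glucocorticoid list, so the 2 counts share genes.

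Immediate early genes, which cells transcribe within minutes of a signal, leaned the same way. Jun stood at 6.45 and 8.16 CPM in control, 43.2 and 19.2 at heat and 4.63 and 4.46 at recovery (log2 2.09, SE 0.39). Fos, its partner in the factor AP-1, stood at 26.4 and 30.7, then 68.8 and 55.6 CPM (log2 1.12, SE 0.25). For Jun the difference was 2.77 in control 1 with heat 1 and 1.21 in control 3 with heat 2, and both heat libraries exceeded every other blood library. Of 29 tested, 16 were higher and none lower without overlap, 10 had an unadjusted p under 0.05 and 7 passed DESeq2, with a median of 0.64. That median was 0.90 in the first pair and 0.22 in the second. Klf6 (log2 1.17) and Fosl2 (1.20) were among the latter.

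The integrated stress response, in which cells slow translation and make the factors ATF4 and CHOP, had 8 of 15 tested genes higher without overlap and none lower. Over all genes tested, 20.5% were higher and 23.1% lower without overlap. The median of the integrated stress response list was 0.70 (0.78 in the first and 0.76 in the second pair). Atf3 stood at 2.81 and 4.42 CPM in control and 19.5 and 8.95 at heat (log2 1.97, SE 0.52), and 0.99 in control 3 with heat 2. Chac1, which degrades glutathione, stood at 1.69 and 1.13, then 9.5 and 4.81 CPM (log2 2.34), and Ddit4, an inhibitor of mTORC1, at 5.28 and 10.4, then 25.2 and 21.8 CPM (log2 1.58). Ddit3, the gene for CHOP, had a log2 of 1.19. Among p53 targets and apoptosis genes 7 of 17 were higher without overlap, led by the BH3-only gene Pmaip1 (log2 1.63) and the death receptor Fas (1.34), alongside the survival gene Mcl1 (0.73). Their median was 0.28 (0.23 in each pair). Among NRF2 targets 6 of 23 were higher without overlap, near the share of all genes, and Hmox1 was the 1 that passed DESeq2. The NRF2 median was 0.34 (0.43 in the first and 0.12 in the second pair).

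Blood cell markers differed alongside these groups. The 16 mature neutrophil markers summed to 502 and 569 CPM in control, 1140.1 and 937 at heat and 272 and 398 at recovery. Of the 16, 12 were higher at heat and none lower without overlap, 9 had an unadjusted p under 0.05 and 7 passed DESeq2, with a median log2 of 0.93 (1.27 in control 1 with heat 1, 0.64 in control 3 with heat 2). Csf3r, the G-CSF receptor, stood at 171 and 178, then 414 and 327, then 94.2 and 123 CPM (log2 1.09, SE 0.21). The chemokine receptor Cxcr2 stood at 31.5 and 31.6, then 88.9 and 63.7, then 16.2 and 23.1 CPM (log2 1.27, SE 0.23). In bulk blood more neutrophils and more RNA per neutrophil cannot be told apart. The median of the neutrophil list was near that of the inflammatory list, which holds Il1b as well, and the part of neutrophils in the hormone-responsive and inflammatory differences was not tested.

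Markers of earlier, granule-producing neutrophils stayed low. The 7 of 11 genes that held enough reads to be tested summed to 20.9 and 31.0 CPM in control, 34.5 and 21.5 at heat and 20.9 and 49.4 at recovery, and the sums of control and heat overlapped. Of these 7, Lcn2, an iron-withholding protein, was the 1 that was higher without overlap (log2 1.45). Monocyte markers summed to 881 and 2255, then 521 and 4225 CPM, following Fn1 in control 3 and heat 2. In that list the patrolling monocyte gene Cx3cr1, at 15.4 and 18.4, then 10.3 and 6.29 CPM (log2 -1.03), and Ms4a4c (-0.58) were lower.

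B cell markers were lower at heat in both libraries. Their sum was 1621 and 1349 CPM in control, 1095 and 1150 at heat and 1805 and 1713 at recovery. Of 16 tested, 14 were lower and none higher without overlap, 10 had an unadjusted p under 0.05 and 2 passed DESeq2, Ighd and Cd79b. Ighd, the IgD heavy chain of mature naive B cells, stood at 97.8 and 74.7, then 43.9 and 43.5, then 116 and 106 CPM (log2 -0.98, SE 0.16). Cd79b, a signalling chain of the B cell receptor, stood at 107 and 87.4, then 58.4 and 69.4, then 114 and 112 CPM (log2 -0.61). The median was -0.52, and -0.70 in control 1 with heat 1 against -0.30 in control 3 with heat 2.

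T cell markers were lower too. Of 18 tested, 11 were lower and none higher without overlap, 9 had an unadjusted p under 0.05, and Trac and Cd3e passed DESeq2. The T cell receptor gene Trac stood at 20.3 and 21.3 CPM in control, 12.6 and 11.3 at heat and 20.3 and 16.9 at recovery (log2 -0.80, SE 0.13). Cd3e, a chain of the same receptor complex, stood at 26.7 and 25.3, then 17.3 and 15.4 CPM (log2 -0.67). The summed level, at 621 and 605, then 578 and 413 CPM, was lower in both heat libraries. The median log2 was -0.39, and -0.20 in control 1 with heat 1 and -0.67 in control 3 with heat 2. Natural killer and cytotoxic markers went the other way, with 7 of 14 higher and none lower without overlap, none of them past DESeq2 and a median of 0.34 (0.56 in the first and 0.13 in the second pair).

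**Figure D4:**
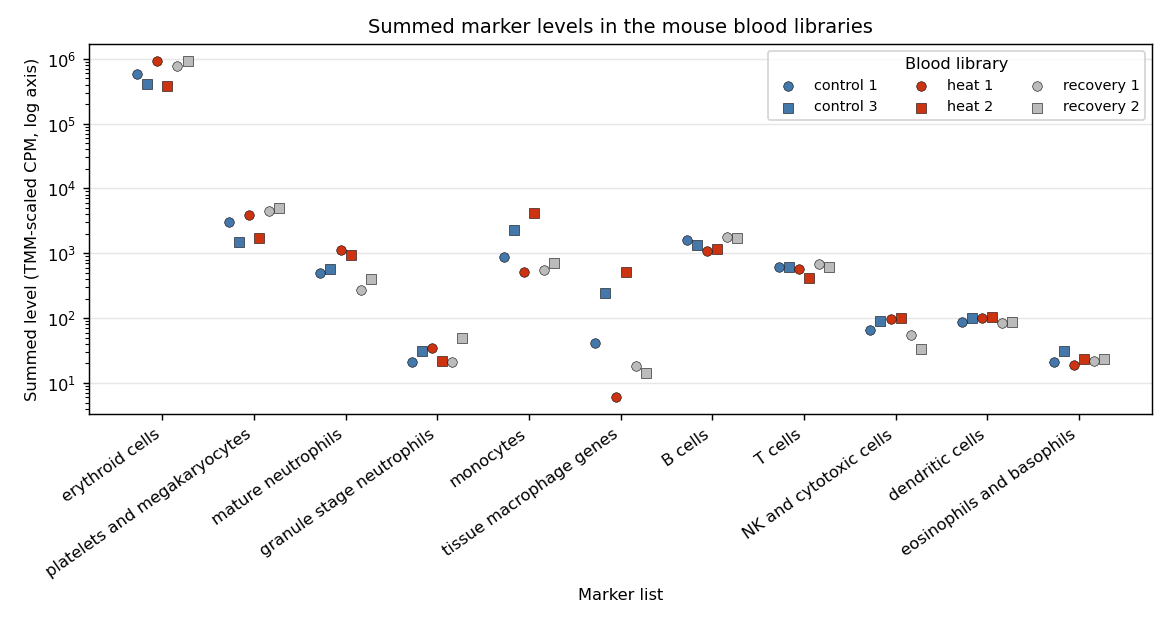
Summed levels of the tested members of 11 marker lists in the 6 mouse blood libraries, as TMM-scaled CPM on a log axis; each point is 1 library. Mature neutrophil sums are highest in the heat libraries and B cell sums lowest there, while tissue macrophage and monocyte sums are high in control 3 and heat 2 and red cell sums are lowest in those 2.

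Receptors that steer leukocytes between blood and tissue were, as a list, near the background, and single members differed in either direction. Cxcr4, which retains cells in the marrow and is induced by glucocorticoids, stood at 49.2 and 55.6 CPM in control, 225 and 132 at heat and 31.1 and 41.0 at recovery (log2 1.77, SE 0.28). S1pr1, with which lymphocytes leave lymph nodes, stood at 65.9 and 71.2, then 35.3 and 42.0, then 76.1 and 73.7 CPM (log2 -0.83, SE 0.13). Ccr7, the lymph node homing receptor of naive cells, stood at 52.4 and 42.1, then 32.8 and 30.1, then 55.7 and 56.3 CPM (log2 -0.59). Of 21 tested homing receptors, 5 were higher and 6 lower without overlap, against 20.5 and 23.1% of all genes, and 2 higher and 3 lower genes passed DESeq2. The median of the receptors was -0.05 (0.03 in the first and -0.14 in the second pair).

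Antigen presentation genes had medians below 0, but their levels did not move as one. In the class I pathway 4 of 11 genes were lower and 1 higher without overlap, against 23.1 and 20.5% of all genes, and 1 in each direction passed DESeq2. The class I genes summed to 1275 and 1163 CPM in control and 1388 and 1262 at heat, which overlap, and their median was -0.25 (-0.38 in the first and -0.10 in the second pair). The peptide transporter Tap1 stood at 44.1 and 38.5 CPM in control, 29.6 and 26.5 at heat and 42.3 and 41.3 at recovery (log2 -0.56, SE 0.12). The immunoproteasome subunit Psmb9 had a log2 of -0.56. In the class II pathway 4 of 9 were lower and 1 higher, with the peptide-loading regulator H2-Oa of B cells at 11.6 and 7.50, then 4.22 and 5.06 CPM (log2 -1.04). The class II median was -0.36, with -0.55 in the first and -0.07 in the second pair. Interferon-stimulated genes had 10 of 35 higher and 4 lower without overlap, against 20.5 and 23.1% of all genes, and none passed DESeq2. Their median was 0.17 (0.37 in the first and -0.02 in the second pair).

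Housekeeping groups differed little. Of 50 cytosolic ribosomal protein genes 20 were lower and none higher without overlap, by small amounts: the median was -0.12 and the lowest value -0.43, for Rpl38. Ribosome biogenesis genes had a median of -0.14 and respiratory chain genes one of -0.10, with 8 of 26 and 9 of 37 lower without overlap. Over all genes tested, 23.1% were lower and 20.5% higher without overlap. Without TMM the median of all genes was -0.17, so shifts of this size were no larger than the choice of scaling. Red cell genes overlapped for 18 of 19 and platelet genes for 16 of 16, and red cell sums overlapped, at 577646 and 404054 CPM in control and 914622 and 373613 at heat. Of 18 clock genes 7 were higher and 3 lower without overlap, and Nfil3, a repressor in the clock, stood at 3.98 and 5.79 CPM in control and 10 and 11.6 at heat (log2 1.14). In the hypoxia list Pdk1, a brake on pyruvate entry to mitochondria, stood at 39.5 and 36.6, then 21.0 and 20.8, then 44.9 and 42.9 CPM (log2 -0.87, SE 0.10), opposite to P4ha1 of the same list.

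To find where the blood response differed from that of the solid tissues, the heat effect in blood minus that in the other tissue was tested in joint fits. Against lung, 2 of 20881 genes passed (0.00958%), with 1451 at an unadjusted p under 0.05 and 129 by DESeq2. Hdc, which makes histamine, stood at 12.1 and 12.2 CPM in blood control and 30.0 and 30.4 at blood heat. In lung it stood at 30.7 to 34.3 in control and 26.3 to 29.2 at heat. The log2 value of heat against control was 1.30 in blood and -0.20 in lung, a difference of 1.499 (SE 0.15, edgeR adjusted p = 0.0265). Ier3, an immediate early survival gene, stood at 2.26 and 2.97, then 11.1 and 7.94 CPM in blood, and at 29.5 to 32.1, then 19.0 to 22.2 in lung. That log2 value was 1.84 in blood and -0.54 in lung, a difference of 2.38 (SE 0.25, edgeR adjusted p = 0.0265). Neither call held when any 1 of blood control 1 or 3 or of the lung libraries was left out, each of which left 0 genes, while 7 passed without blood heat 1 and 20 without blood heat 2.

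Against muscle, 2 of 19754 genes passed (0.0101%), with 3410 at an unadjusted p under 0.05 and 1224 by DESeq2. Several leukocyte genes were lower in muscle heat than in muscle control libraries. Their log2 value was -3.01 for Ptprc, -4.89 for Ighd and -3.92 for Trac. Ighd stood at 5.51 to 21.8 CPM in muscle control and 0.056 to 0.899 in muscle heat. Cxcr4 did not follow them, at a log2 value of 0.06. How far leukocyte RNA in the muscle libraries entered the 3410 and 1224 was not tested. Crispld2 had the blood levels given above, and stood at 18.6 to 20.2 CPM in muscle control and 11.7 to 19.2 in muscle heat, so that its log2 value of heat against control was 3.05 in blood and -0.26 in muscle (difference 3.31, SE 0.33, edgeR adjusted p = 0.0267). Nle1, a ribosome assembly factor, was the reverse. It stood at 3.72 and 3.33, then 1.94 and 3.01 CPM in blood, but at 5.16 to 6.52, then 78.9 to 180 in muscle. The difference was -5.13 (SE 0.50, edgeR adjusted p = 0.0267). The count was 0 without blood control 1 or 3, muscle control 1 or 2 or muscle heat 1, 1 without blood heat 1 or muscle heat 3, and 1222 without muscle control 3.

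None of a panel of 24 stress genes passed in either joint fit by edgeR's quasi-likelihood test, while DESeq2 called Hmox1 against lung and Hmox1, Dnajb1 and Dusp1 against muscle. The log2 value of Hspa1a was 7.39 in blood and 7.38 in lung, a difference of 0.02 with an SE of 1.71, so that large differences would have gone unseen. At an unadjusted p under 0.05 stood 1 panel gene against lung, Hmox1 (difference 2.05), and 6 against muscle: Hmox1 (2.44), Il1b (3.27), Per1 (1.36), Dusp1 (1.12), Fkbp5 (0.86) and Dnajb1 (-2.70). Il1b was scarce in muscle, at 0.00 to 0.50 CPM in its 6 libraries. Cxcr4, chosen after its values were seen, had a log2 value of 1.75 in blood and 0.33 in lung (difference 1.42, SE 0.30, edgeR adjusted p = 0.235).

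**Figure D5:**
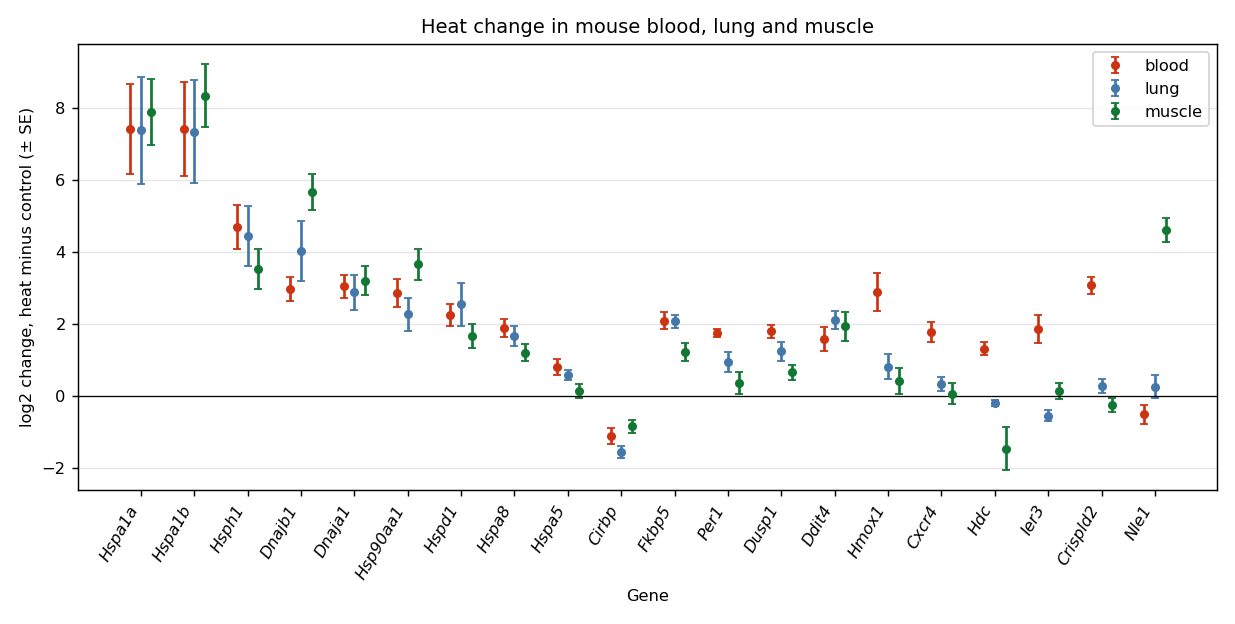
Log2 value of heat against control with its SE (edgeR) for 20 genes in mouse blood (4 libraries), lung and muscle (6 each), with blood values from its own fit of 6 libraries. Hspa1a, Hspa1b, Hsph1 and Dnaja1 lie close in the 3 tissues beside their SE, Dnajb1 is lowest in blood and highest in muscle, and Hdc, Ier3, Crispld2 and Nle1 hold the differences that passed.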

How the data were processed

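The authors deposited raw read counts per gene, 1 column per library and no normalization. Alignment used STAR 2.7 on GRCm39 and counting used featureCounts, per the submitters' processing notes; the annotation, strand setting and filters are not given in the sources used here, so overlapping and antisense genes cannot be told apart. TRIzol total RNA and a directional NEBNext kit were used, per the labels' protocols. From these counts, the 6 mouse blood libraries were fitted together in edgeR 4.0.16 (limma 3.58.1, R 4.3.3): filterByExpr (minimum count 10, minimum total 15), TMM, and the robust quasi-likelihood test of heat minus control, with Benjamini-Hochberg adjustment over all genes tested and a call at 0.05. Differences between tissues were interaction contrasts over 10 control and heat libraries each. The scripts were tested on simulated counts. Alternatives were DESeq2 1.42.0, its size factors, no TMM, scaling without red cell genes, no filter, fits without recovery libraries or without robust estimation, and leaving out each library. Leaving out control 3 with heat 2, or control 1 with heat 1, and a replicate block in the tissue comparisons were added after seeing the data.

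The 43 gene and marker lists and the named genes were chosen with earlier results of these data known. Named were a panel of 24 stress genes, the called tissue differences, and at most 4 members of each list with the smallest unadjusted p under 0.05. So were the 12 largest differences in each direction (mean of at least 5 CPM, no overlap, unadjusted p under 0.05, a full gene symbol). The rule asked for called genes there. As there were none, the unadjusted p took the place of that condition after values were seen. Also chosen after their values were seen were Fn1, Timd4, C1qa, H1f3, Ccr7, Cxcr4 in lung, Hspa4, Trf, Pdk4 and 2 lists, of tissue macrophage and clustered histone genes. With fewer than 5 tested members, markers of lung epithelium, skeletal muscle, endothelium, hepatocytes and adipocytes are not drawn. Gene coordinates and sequences are not given, as no genome of the authors' build was used. Bat libraries were not analysed here.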

Additional observations from a re-analysis of the deposited data

Results flagged for a closer look

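In 4 genes the heat effect differed between mouse blood and a solid tissue by the test of the difference itself (edgeR quasi-likelihood, adjusted over all genes of each joint fit). Against lung, the blood effect was higher by 1.499 on the log2 scale for Hdc and by 2.38 for Ier3 (adjusted p = 0.0265 each), and all blood heat libraries lay above, and all lung heat libraries below, their controls. Over 14 alternatives the difference ran from 1.41 to 1.57 for Hdc and from 2.13 to 2.61 for Ier3, and each was called in 5. Against muscle, the difference was 3.31 for Crispld2 and -5.13 for Nle1 (adjusted p = 0.0267 each). It ran from 3.09 to 3.52 and from -5.52 to -4.77 over the alternatives, called in 6 and 5 of 14. Nle1 differed mainly through muscle, where its 3 heat libraries stood above its 3 control libraries.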

How the results depend on the processing

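The 4 blood libraries compared, and 3 residual degrees of freedom, limit what can be called. Against 0 genes higher and 0 lower, the counts were 32 and 2 without TMM, 274 and 126 without a filter, 425 and 185 with DESeq2, 0 to 494 and 0 to 242 when 1 library was left out, 1718 and 1083 for control 1 with heat 1, and 422 and 223 for control 3 with heat 2; DESeq2 size factors, scaling without red cell genes, non-robust estimation and the fit without recovery gave 0. At an unadjusted p under 0.05, against 1187 higher and 1168 lower, the counts were 243 and 364 without TMM, 911 and 740 without the recovery libraries, 652 to 2226 and 476 to 2183 when 1 library was left out, and 2683 and 2048 for control 1 with heat 1. Of 135 named genes, 13 were called in 7 of 15 alternatives and 16 in none. Of these 135, mostly named for no overlap or a small p in these same libraries, only Hsf1 turned sign. It went to -0.12 without TMM, -0.0636 in control 3 with heat 2 and -0.0767 without heat 1 (up to 0.278 when 1 library was left out). Of 675 list medians, 100 moved beyond the spread between library pairs. For the tissue differences, against 2 each, no filter gave 4 in lung and 28 in muscle, DESeq2 129 and 1224, and leaving out 1 library 0 to 20 and 0 to 1222. No paired analysis was possible because the blood control libraries (1 and 3) and heat libraries (1 and 2) share a single replicate number. In the joint fits the labels do not say that equal numbers mark 1 animal. Deviations of same-numbered libraries correlated by 0.01 to 0.34 in lung, where the own number was highest in 2 of 4, and by 0.05 to 0.08 in muscle, highest in 4 of 4; a replicate block gave 0 genes in each. The cause of these shifts was not tested.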
